A study of Homo sapiens with 8 samples.

Results

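The 10 genes described here encode the NF-kB transcription factors and the proteins that switch them off or belong to their feedback. They are the 5 subunit genes NFKB1, NFKB2, REL, RELA and RELB, the inhibitor genes NFKBIA and NFKBIE, and the regulator genes TNFAIP3, TRAF1 and BIRC3. They were taken by gene name from the 55765 gene names in the deposited tables, each had 1 row, and all 10 were among the 14650 genes tested, those averaging 1 TPM or more across the 8 libraries (TPM, an abundance per transcript length with an equal sum for each library). Total RNA was sequenced, with a TruSeq RNA kit, from the human acute myeloid leukaemia cell lines NB4, an acute promyelocytic line with the fusion gene PML-RARA, and Kasumi-1, a line with the fusion gene RUNX1-RUNX1T1. Each line was left without treatment or exposed to 40 uM chlorprothixene, a thioxanthene antipsychotic, for 6, 12 or 24 h, in medium that held 10% FBS. Each of the 8 conditions has 1 library and no replicate, so no value below carries a spread between cultures. The labels name neither a vehicle nor untreated libraries at 6, 12 or 24 h, so drug and time in culture cannot be told apart. In bulk RNA, fewer cells of a kind and less RNA in each cell cannot be told apart either. A change is log2(TPM + 1) with treatment minus that of the line's own untreated library.

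NF-kB dimers are held in the cytoplasm by IkB proteins until IkB kinase marks the inhibitor for destruction and the dimer enters the nucleus. In the canonical branch the dimers are made mainly of RELA or REL with p50, the product of NFKB1. In the noncanonical branch p100, the product of NFKB2, is cut to p52, which pairs with RELB. Many genes of the pathway are themselves NF-kB targets, among them NFKBIA, NFKBIE, TNFAIP3, TRAF1, BIRC3, NFKB1, NFKB2, REL and RELB, and the pathway is widely used by myeloid cells in inflammation and survival.

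The line markers fitted the labels in part. RUNX1T1 stood at or under 0.0476 TPM in NB4 and between 58.0 and 92.5 TPM in Kasumi-1. The progenitor markers KIT, CD34, RUNX1T1 and FLT3 summed to between 1.005 and 5.42 TPM in NB4, against 174 to 656 TPM in Kasumi-1. The 6 granule and myeloid markers summed to between 1898 and 6679 TPM in NB4, lowest at 24 h, and to between 13437 and 20828 TPM in Kasumi-1, but ELANE, neutrophil elastase, stayed at or under 0.759 TPM in NB4. The B cell marker MS4A1, the keratin KRT19 and the beta-globin HBB were at 0 in all 8 libraries. The 5 lymphoid markers summed to between 9.52 and 21.3 TPM in NB4 and between 4.83 and 15.02 TPM in Kasumi-1. The erythroid markers summed to at most 0.153 TPM in NB4 against 4.27 TPM in Kasumi-1, the epithelial ones to at most 23.5 and 29.7 TPM, and the stromal ones to at most 1.496 and 0.106 TPM. Mitochondrially encoded genes took between 5.04% and 6.71% of the TPM in NB4, and in Kasumi-1 between 7.94% and 10.6% up to 12 h and 17.1% at 24 h. A part of any of these in the results was not tested, apart from rescaling TPM without mitochondrial and the 10 most abundant genes.

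In NB4 the NF-kB genes stood higher at every treated time, while in Kasumi-1 most of them stayed within 2-fold of the untreated level. There TRAF1 was higher at every treated time, and TNFAIP3 and NFKBIE were lower, least so at 24 h. In TPM all 10 were above the untreated level in each of the 3 treated NB4 libraries, as were 47.2%, 50.6% and 48.2% of all genes at 6, 12 and 24 h, and REL at 24 h was so by 0.050 on the log2 scale. Folds in these counts are of TPM + 1. In NB4 9, 8 and 7 of the 10 were at least 2-fold higher at 6, 12 and 24 h, against 3.06%, 5.6% and 6.51% of all genes tested. In all, 7 genes were at least 2-fold higher at all 3 times, namely NFKB2, RELB, NFKBIA, NFKBIE, TNFAIP3, TRAF1 and BIRC3, against 2.03% of all genes. At least 2-fold lower in NB4 were 0 of the 10 at each time, against 2.27%, 2.37% and 2.88% of all genes, and 0.703% at all 3 times. In Kasumi-1 1, 1 and 0 of the 10 were at least 2-fold higher at 6, 12 and 24 h, against 6.44%, 4.85% and 5.11% of all genes, and the gene was TRAF1 both times. Of the 10 genes, 2 were at least 2-fold lower in Kasumi-1 at 6 h, TNFAIP3 and NFKBIE, against 2.99% of all genes. At 12 and 24 h 0 were, against 3.52% and 3.88%. At all 3 Kasumi-1 times 0 of the 10 were at least 2-fold higher (1.88% of all genes) and 0 lower (0.655%). TRAF1, at 0.343 TPM untreated, was 0.94 above it at 24 h on this scale, and with a pseudocount of 0.1 it was at least 2-fold higher at all 3 times.

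Over the 10 genes the median change in NB4 was 1.91 at 6 h, 2.19 at 12 h and 1.73 at 24 h, beside -0.0049, 0.0077 and 0 over all genes tested. The Kasumi-1 medians were 0.11, 0.26 and -0.16, beside -0.011, -0.077 and -0.041. TRAF1 and BIRC3 were under 1 TPM in both untreated libraries and were tested only because of higher treated libraries, so their part in these counts follows in part from that filter. The 3 changes within a line share its untreated library.

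**Figure D1:**
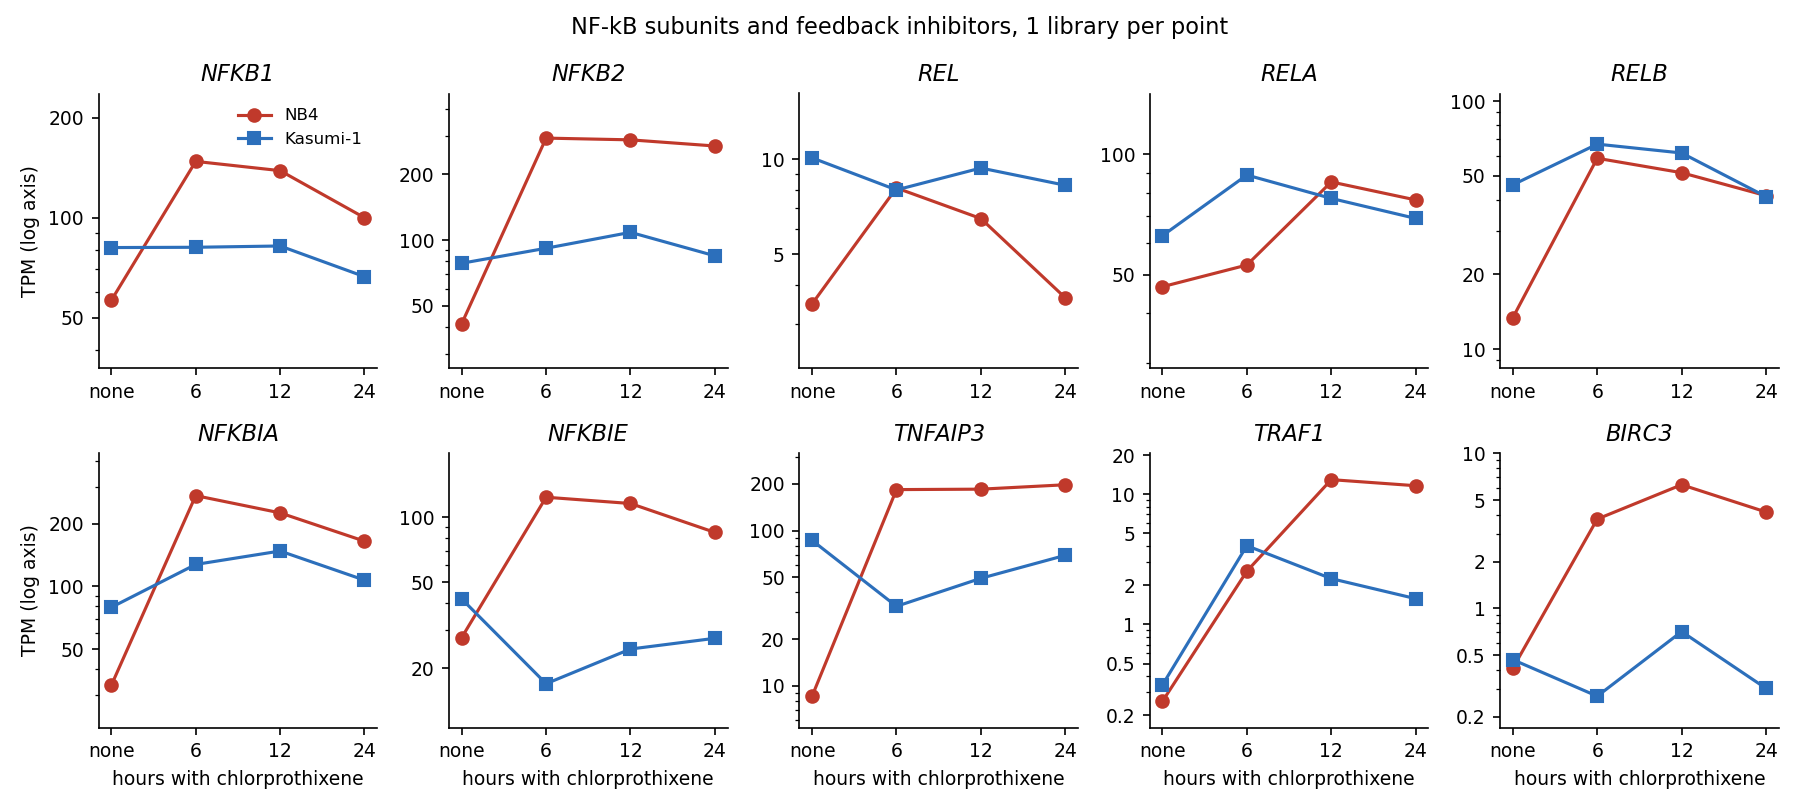
TPM on a log axis of the 10 genes without treatment and after 6, 12 and 24 h with chlorprothixene, in NB4 (circles) and Kasumi-1 (squares); each point is 1 library. TNFAIP3 stood at 184, 185 and 197 TPM in treated NB4 and at 32.5, 49.3 and 69.3 TPM in treated Kasumi-1, the lines lying in the opposite order when untreated.

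Without treatment every one of the 10 genes was lower in NB4 than in Kasumi-1, where 52.5% of all genes tested were. The difference of log2(TPM + 1), NB4 minus Kasumi-1, had a median of -0.74 over the 10 genes and -0.050 over all genes. It reached at least 2-fold for 4 of the 10, against 16.6% of all genes: TNFAIP3 (-3.19), RELB (-1.71), REL (-1.31) and NFKBIA (-1.22). At least 2-fold higher in NB4 were 0 of the 10, against 13.1% of all genes. The difference was smallest for BIRC3 (-0.055) and TRAF1 (-0.096), which were near 0 TPM in both. With 1 untreated library a line these differences have no test.

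The order of the genes by untreated level also differed between the lines. In NB4 it ran from NFKB1 (56.5 TPM), RELA (46.6), NFKB2 (41.5), NFKBIA (33.5) and NFKBIE (27.7 TPM) to RELB (13.4), TNFAIP3 (8.58), REL (3.48), BIRC3 (0.412) and TRAF1 (0.257 TPM). In Kasumi-1 TNFAIP3 came first with 86.5 TPM, and NFKB1, NFKBIA and NFKB2 lay close together at 81.4, 79.3 and 78.4 TPM. RELA (62.6), RELB (46.0), NFKBIE (41.8), REL (10.1), BIRC3 (0.467) and TRAF1 (0.343 TPM) followed. Whether neighbours in either order differ beyond culture spread cannot be said without replicates. The order also depends on the level scale: the deposited coverage of NFKB1, the mean read depth over the gene, was 14.1% to 15.1% of what its FPKM corresponds to for most genes of a library. The same share was 30.8% to 34.6% for TNFAIP3 and 91.3% to 100% for NFKBIE. On the coverage scale NFKB1 had 32.0 in untreated NB4, below NFKB2 with 97.2.

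After treatment the order of the lines was turned round for most of the genes. NB4 minus Kasumi-1 was above 0 for 7, 8 and 9 of the 10 genes at 6, 12 and 24 h (48.5%, 53.5% and 50.2% of all genes), with medians of 0.97, 1.07 and 1.06. NFKB1, NFKB2, NFKBIA, NFKBIE, TNFAIP3 and BIRC3 were lower in NB4 untreated and higher in NB4 at all 3 treated times. For BIRC3 the untreated difference was -0.055, on a coverage of 1.10 in NB4 and 1.04 in Kasumi-1, so its untreated order is not settled. BIRC3 was also tested only because treated NB4 was high. RELB came level by 24 h, with 41.6 TPM for NB4 against 41.2 TPM for Kasumi-1. REL was the gene still lower in NB4 at 24 h, with 3.64 TPM in NB4 against 8.28 TPM in Kasumi-1.

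**Figure D2:**
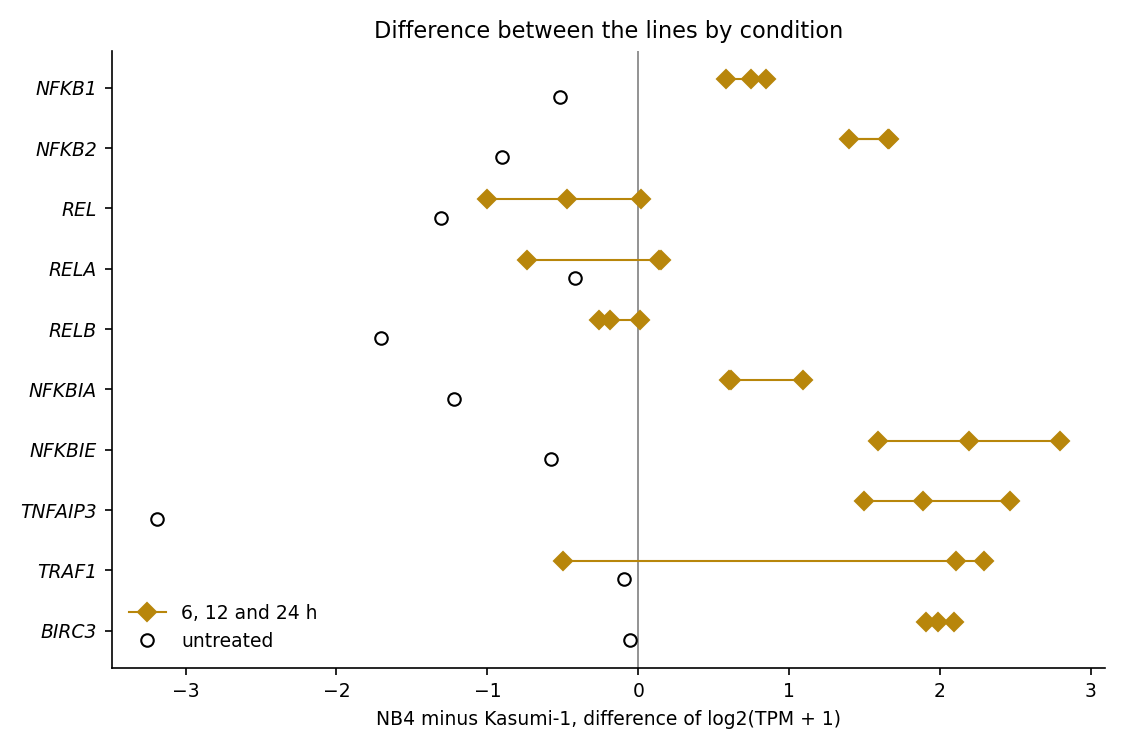
Difference of log2(TPM + 1), NB4 minus Kasumi-1, for each gene at 6, 12 and 24 h (filled diamonds, joined) and untreated (open circles); values left of 0 are lower in NB4. All 10 open circles lie left of 0, and the 3 diamonds of NFKB1, NFKB2, NFKBIA, NFKBIE, TNFAIP3 and BIRC3 lie right of it.

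The limma test of the response difference (mean change of the 3 times in NB4 minus that in Kasumi-1, over all 14650 genes) sets the change in NB4 against that in Kasumi-1. It equals the treated difference between the lines minus the untreated one, so it contains the untreated level. Of TNFAIP3's 5.14, 1.95 is the treated difference and the untreated one is -3.19, while for RELB (-0.14 treated, -1.71 untreated) and REL (-0.48 and -1.31) NB4 was not the higher line on average after treatment. Of the 10 genes, 2 passed with Benjamini-Hochberg adjusted p under 0.05, both higher in NB4, against 0.0887% of all genes, and 0 were lower, against 0.041%. TNFAIP3 had a response difference of 5.14 (SE 0.49, adjusted p = 0.0187) and NFKB2 of 2.47 (SE 0.25, adjusted p = 0.0187). At an unadjusted p under 0.05, 7 of the 10 were higher in NB4, against 6.37% of all genes, and 0 lower, against 4.22%. These were, beside TNFAIP3 and NFKB2, NFKBIE (2.77, SE 0.43, adjusted p = 0.0881), BIRC3 (2.05, SE 0.46, adjusted p = 0.250), NFKBIA (1.99, SE 0.41, adjusted p = 0.196), RELB (1.56, SE 0.43, adjusted p = 0.315) and NFKB1 (1.24, SE 0.35, adjusted p = 0.315). TRAF1 (1.40, SE 1.05), REL (0.83, SE 0.52) and RELA (0.27, SE 0.39) did not reach it. BIRC3 was tested only because treated NB4 was high, so its place in this count follows in part from the filter, and its value was 3.40 with a pseudocount of 0.1. The test takes the times of a line as repeats around 1 untreated library, so its p-values hold the spread between times and not between cultures. TNFAIP3 no longer passed when the 12 h NB4 library (adjusted p = 0.0671), the 24 h NB4 library (0.0666) or the 12 h Kasumi-1 library (0.0964) was left out. Of the 6 fits that left out a treated library, NFKB2 passed in the one without Kasumi-1 at 24 h (adjusted p = 0.0280) and had limma adjusted p between 0.0513 and 0.0882 in the others. Its value with coverage in place of TPM was adjusted p = 0.0516. With terms for 12 h and 24 h shared by the lines, an alternative added after the data were seen, neither passed (limma adjusted p = 0.0705 for TNFAIP3 and 0.107 for NFKB2).

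**Figure D3:**
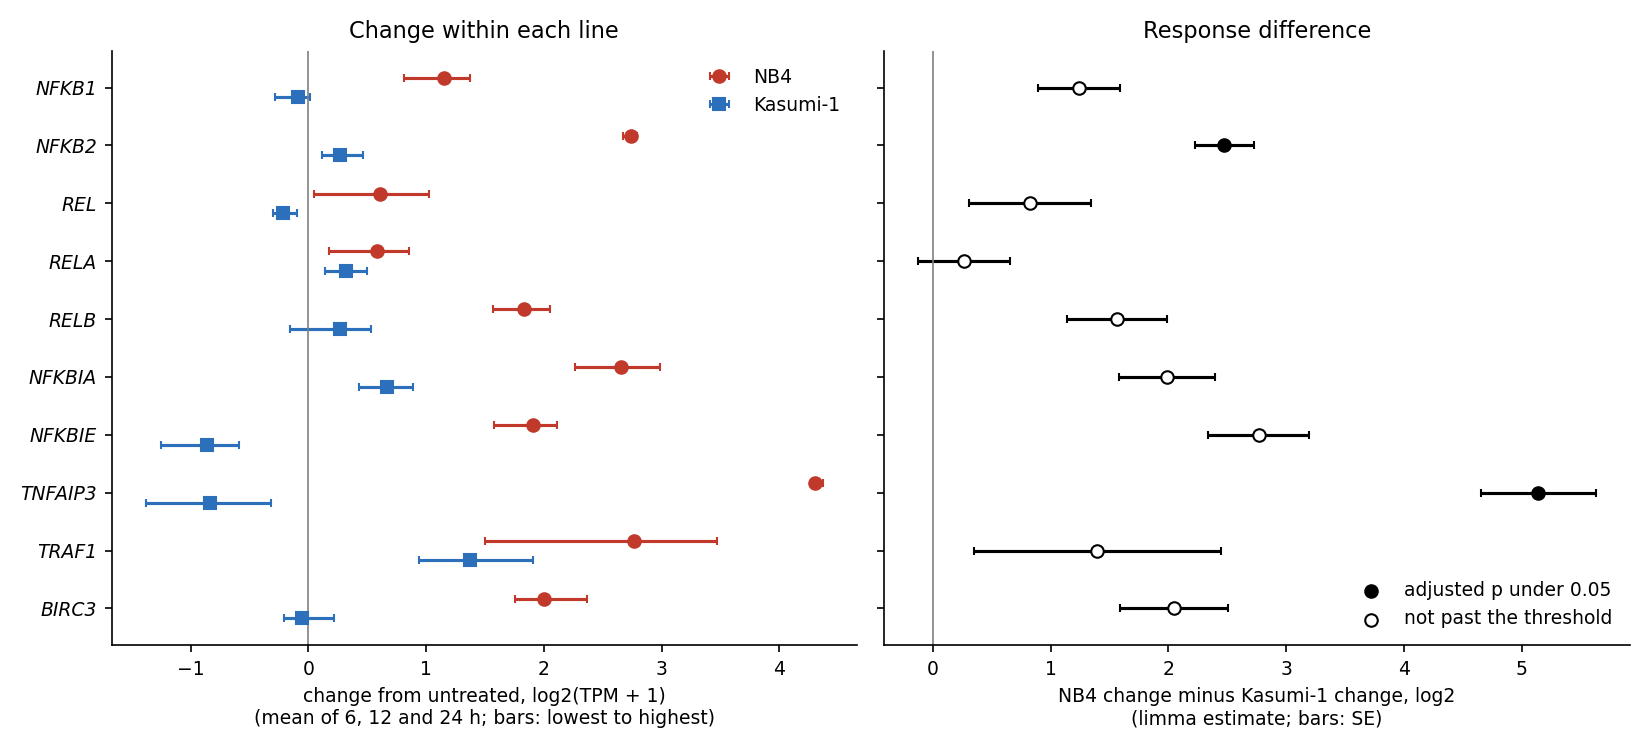
Left, mean change from untreated over 6, 12 and 24 h in NB4 (circles) and Kasumi-1 (squares), with bars from the lowest to the highest of the 3 times; right, the response difference, NB4 change minus Kasumi-1 change, with its SE. Filled points are TNFAIP3 (5.14) and NFKB2 (2.47), the genes with adjusted p under 0.05 by limma.

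The test of the shared response takes the mean change over both lines. Its SE holds how far the lines moved apart, not a spread between cultures, so unlike movement raises the p-value. The mean itself does not require that both lines move the same way. By limma 0 of the 10 genes passed, while 0.0273% of all genes did so upward. At an unadjusted p under 0.05, 4 of the 10 were higher with treatment, against 9.3% of all genes, and 0 lower, against 11.1%. They were NFKBIA (mean log2 change 1.66, SE 0.40, adjusted p = 0.116), TRAF1 (2.07, SE 0.58, adjusted p = 0.136), RELB (1.05, SE 0.32, adjusted p = 0.155) and NFKB2 (1.505, SE 0.49, adjusted p = 0.164). TRAF1 was tested only because of higher treated libraries, so its place in this count follows in part from the filter. The mean changes of NFKB2 were 2.74 in NB4 against 0.27 in Kasumi-1, and those of RELB 1.83 against 0.27. In TPM, NFKBIA, NFKB2, RELA and TRAF1 were above the untreated level in 6 of 6 treated libraries and RELB in 5 of 6. For NFKB2 and RELA this was by 0.11 and 0.14 on the log2 scale in Kasumi-1 at 24 h. Their unscaled coverage there was below untreated (157 against 161 and 101 against 103), although the library's summed coverage was slightly higher. For TNFAIP3 (1.74, SE 0.998, adjusted p = 0.366) and NFKBIE (0.52, SE 0.57, adjusted p = 0.636) the mean joins changes of opposite sign, 4.31 and -0.83 for TNFAIP3 and 1.91 and -0.86 for NFKBIE in NB4 and Kasumi-1. Without the untreated Kasumi-1 library the contrast rests on NB4, with 4.31 for TNFAIP3, 2.74 for NFKB2, 2.65 for NFKBIA and 1.83 for RELB. Without the untreated NB4 library it rests on Kasumi-1, with 0.27 for NFKB2, 0.67 for NFKBIA and 0.27 for RELB. The values of NFKB1, REL, NFKBIE, TNFAIP3 and BIRC3 were then below 0. Either fit has 1 untreated library, which it matches exactly, so no p-value is given for these changes.

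The test of the line difference over all 8 libraries mixes level and response. Higher in NB4 were 2 of the 10 genes, NFKBIE (1.4998, SE 0.496, limma adjusted p = 0.0376) and BIRC3 (1.48, SE 0.38, adjusted p = 0.0140), against 27.5% of all genes. Lower in NB4 was REL (-0.69, SE 0.24, adjusted p = 0.0460), against 27.8% of all genes. BIRC3 passed the filter only through the treated NB4 libraries in which it was high, so its call follows in part from that filter. NFKBIE was higher in NB4 only in the treated libraries and lower untreated. NFKBIE passed in 2 of the 8 fits that left out 1 library, those without either untreated library, REL in the 2 without either 6 h library, and BIRC3 in 3, those without either untreated library or NB4 at 6 h. In the other fits the adjusted p lay between 0.0974 and 0.132 for NFKBIE, 0.0874 and 0.145 for REL, and 0.0506 and 0.0619 for BIRC3.

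Among the subunits, the noncanonical genes NFKB2 and RELB stood further above their untreated level in NB4 than NFKB1, REL and RELA. NFKB2 (chromosome 10, 104153867 to 104162281, plus strand, hg19), which encodes p100 and p52, had, in the order untreated, 6, 12 and 24 h, 41.5, 293, 288 and 270 TPM in NB4, against 78.4, 91.9, 109 and 84.8 TPM in Kasumi-1. The 3 treated NB4 libraries lay above all 4 Kasumi-1 libraries, and the untreated one below them. NFKB2 was level over the treated times in NB4, with changes of 2.79, 2.76 and 2.67. RELB (chromosome 19, 45504688 to 45541452, plus strand), its partner, had 13.4, 58.8, 51.4 and 41.6 TPM in NB4, against 46.0, 67.0, 61.8 and 41.2 TPM in Kasumi-1. Its NB4 changes were 2.05, 1.86 and 1.56, and the treated libraries of the lines overlapped in level.

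The 250 bases before the RefSeq start sites of NFKB2 are shown because it passed the test of the response difference and carries matches to the kappaB consensus, the 10-base motif bound by NF-kB. The windows are from GRCh38.p14 (chr10:102394328-102394577, plus strand, and chr10:102395455-102395704, plus strand), a different build from the hg19 of the expression tables, and run 5' to 3' in the direction of the gene. Capitals mark the matches found on either strand.
NFKB2 start site 2: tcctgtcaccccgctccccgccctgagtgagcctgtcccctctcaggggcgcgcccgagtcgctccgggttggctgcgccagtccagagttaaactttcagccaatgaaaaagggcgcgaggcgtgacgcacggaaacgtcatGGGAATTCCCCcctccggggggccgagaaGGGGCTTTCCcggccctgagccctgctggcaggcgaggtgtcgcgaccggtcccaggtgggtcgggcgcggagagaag
NFKB2 start site 3: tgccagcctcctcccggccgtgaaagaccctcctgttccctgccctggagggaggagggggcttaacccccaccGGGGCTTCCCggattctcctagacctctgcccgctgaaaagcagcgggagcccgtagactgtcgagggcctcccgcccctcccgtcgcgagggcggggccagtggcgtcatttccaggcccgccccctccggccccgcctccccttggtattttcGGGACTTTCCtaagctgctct
The window of start site 2 has overlapping matches at -107 and -106 and another at -78, counted back from the start site, and that of start site 3 has matches at -176 and -21. NFKB2 start site 1 has none in its window. Of 35116 such windows of all genes, 1828 (5.21%) hold at least 1 match and 223 (0.635%) hold matches at 2 or more positions, overlapping ones included. Of the 10 genes 8 had RefSeq windows, 14 in all, of which 7 held a match, in NFKB1, NFKB2, REL, NFKBIA, TNFAIP3 and BIRC3. A match is a description of letters and not a measured binding site.

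NFKB1 (chromosome 4, 103422486 to 103538459, plus strand), the gene of p105 and p50, had 56.5, 148, 139 and 100.05 TPM in NB4, while Kasumi-1 had 81.4, 81.5, 82.3 and 66.5 TPM. Its changes were 1.37, 1.28 and 0.81 in NB4, against 0.0028, 0.016 and -0.29 in Kasumi-1, so that the treated NB4 libraries were above every Kasumi-1 library. NFKB2 over NFKB1 in TPM was 0.735, 1.98, 2.08 and 2.70 in NB4, against 0.964, 1.13, 1.32 and 1.27 in Kasumi-1. This TPM ratio was highest in NB4 at 24 h, when NFKB1 was 0.81 and NFKB2 2.67 above untreated on the log2 scale. Whether it lies below or above 1 depends on the scale. In coverage NFKB2 was above NFKB1 also when untreated, with 97.2 against 32.0 in NB4 and 161 against 40.7 in Kasumi-1. RELA (chromosome 11, 65421067 to 65430565, minus strand), the p65 subunit with a transactivation domain, had 46.6, 52.8, 85.3 and 76.9 TPM in NB4, against 62.6, 88.8, 77.6 and 69.1 TPM in Kasumi-1. RELA stayed within 2-fold of the untreated level in all 6 treated libraries, with its highest value at 12 h in NB4 and at 6 h in Kasumi-1.

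REL (chromosome 2, 61108656 to 61158745, plus strand), the c-Rel subunit of blood cells, was the least abundant subunit in all 8 libraries. It had 3.48, 8.11, 6.49 and 3.64 TPM in NB4, while Kasumi-1 had 10.1, 8.001, 9.39 and 8.28 TPM. In NB4 its change was 1.02 at 6 h and 0.050 at 24 h. Its coverage relative to FPKM varied from 59.3% to 85.1% of that of most genes, the widest range among the 10. The gene RP11-373L24.1 overlaps REL on the same strand with 2.80 to 16.3 TPM, so the assignment of reads between them is uncertain.

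In Kasumi-1 the IkB genes stood on opposite sides of their untreated levels. NFKBIA (chromosome 14, 35870717 to 35873955, minus strand) encodes IkB alpha, the inhibitor that NF-kB resynthesises to end its own activity. It had 33.5, 272, 225 and 165 TPM in NB4, against 79.3, 127, 148 and 107 TPM in Kasumi-1. Its changes were 2.99, 2.71 and 2.26 in NB4, each time lower than the time before, and 0.68, 0.89 and 0.43 in Kasumi-1. NFKBIA over RELA in TPM was 0.718, 5.16, 2.64 and 2.14 in NB4, against 1.27, 1.43, 1.90 and 1.55 in Kasumi-1. The inhibitor was thus below RELA only in untreated NB4. The window before its start (chr14:35404750-35404999, minus strand, GRCh38.p14) is shown as the classic feedback promoter, with the one match at -81 in capitals.
NFKBIA: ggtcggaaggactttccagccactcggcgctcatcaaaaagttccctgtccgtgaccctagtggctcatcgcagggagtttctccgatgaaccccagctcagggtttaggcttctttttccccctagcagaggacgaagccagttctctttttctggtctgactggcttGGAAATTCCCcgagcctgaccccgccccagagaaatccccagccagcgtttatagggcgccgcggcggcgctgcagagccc

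NFKBIE (chromosome 6, 44225903 to 44233500, minus strand) encodes IkB epsilon, a further inhibitor of RELA and REL dimers. It had 27.7, 124, 116 and 84.96 TPM in NB4, while Kasumi-1 had 41.8, 16.97, 24.5 and 27.5 TPM. All treated NB4 libraries were above, and all treated Kasumi-1 libraries below, the untreated library of their line. Changes were 2.12, 2.02 and 1.58 in NB4, against -1.25, -0.75 and -0.59 in Kasumi-1, largest at 6 h in both. At 6 h NB4 had 7.28 times the TPM of Kasumi-1, where untreated NB4 had 0.663 times.

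TNFAIP3 (chromosome 6, 138188351 to 138204449, plus strand) encodes A20, a ubiquitin-editing enzyme that shuts off signalling above IkB kinase, and had the largest change of the 10 genes at each NB4 time on the log2(TPM + 1) scale. It had 8.58, 184, 185 and 197 TPM in NB4, against 86.5, 32.5, 49.3 and 69.3 TPM in Kasumi-1. In NB4 the treated level was 21.4, 21.5 and 23.0 times the untreated one, and in Kasumi-1 0.376, 0.570 and 0.801 times. The Kasumi-1 value was lowest at 6 h and nearest to untreated at 24 h, whereas in NB4 it stayed level. Untreated NB4 had 0.0992 times the TPM of untreated Kasumi-1, the widest gap of the 10. RP11-356I2.4, on the opposite strand inside the gene, had 0.986 to 3.71 TPM. The window before TNFAIP3 (chr6:137867009-137867258, plus strand, GRCh38.p14) is shown because the gene passed the test of the response difference, with 2 matches, at -67 and -55.
TNFAIP3: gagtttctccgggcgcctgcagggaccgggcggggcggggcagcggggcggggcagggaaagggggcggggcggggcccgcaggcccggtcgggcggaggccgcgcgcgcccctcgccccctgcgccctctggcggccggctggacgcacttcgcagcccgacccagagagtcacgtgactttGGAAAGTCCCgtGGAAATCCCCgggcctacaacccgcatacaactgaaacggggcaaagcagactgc

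The regulators TRAF1 and BIRC3 began near 0 TPM in both lines and differed in Kasumi-1. TRAF1 (chromosome 9, 123664671 to 123691451, minus strand), an adaptor of TNF receptors, had 0.257, 2.56, 13.0 and 11.6 TPM in NB4, while Kasumi-1 had 0.343, 4.03, 2.25 and 1.58 TPM. It was above untreated in all 6 treated libraries, with the highest value at 12 h in NB4 and at 6 h in Kasumi-1. BIRC3 (chromosome 11, 102188215 to 102210134, plus strand), which encodes the ubiquitin ligase cIAP2, had 0.412, 3.77, 6.27 and 4.18 TPM in NB4, against 0.467, 0.271, 0.708 and 0.305 TPM in Kasumi-1. Its 3 treated NB4 libraries lay above the other 5. The deposited coverage behind the untreated values was 0.969 (TRAF1) and 1.10 (BIRC3) in NB4 and 1.14 and 1.04 in Kasumi-1, so these low levels rest on few reads and their ratios are not given. The BIRC3 window (chr11:102317234-102317483, plus strand, GRCh38.p14) has matches at -199 and -135 and is shown because its gene stayed under 1 TPM in all 4 Kasumi-1 libraries.
BIRC3: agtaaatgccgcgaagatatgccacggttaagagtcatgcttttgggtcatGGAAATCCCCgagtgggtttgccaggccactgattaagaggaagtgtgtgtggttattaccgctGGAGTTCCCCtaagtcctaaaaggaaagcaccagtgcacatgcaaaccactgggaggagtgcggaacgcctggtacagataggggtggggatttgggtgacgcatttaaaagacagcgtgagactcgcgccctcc

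The time courses within a line fell into different shapes. In NB4 the highest library was 6 h for NFKB1, NFKB2, REL, RELB, NFKBIA and NFKBIE, 12 h for RELA, TRAF1 and BIRC3, and 24 h for TNFAIP3. Over the 8 libraries, each line centred on its own mean, the genes whose log2(TPM + 1) was most like that of NFKBIA were TMEM167A (Pearson r = 0.988), MYPOP (0.982), PIK3C2A (0.977), DEDD2 (0.975) and NFKB2 (0.973), of 10181 candidates with at least 5 TPM in a library of each line. RELB came at rank 7 (0.972) and NFKB1 at rank 44 (0.930), while TNFAIP3 (0.844), NFKBIE (0.750), REL (0.668) and RELA (0.603) were less alike. The points of a line share its untreated library, and the values are a description.

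Other genes of the pathway were taken from 4 lists by role. By limma, the shared response was past adjusted p 0.05 for 0 of them and the response difference for 2, both targets. Of 11 ligand and receptor genes 6 were tested, and the shared test gave an unadjusted p under 0.05 to 1 higher and 1 lower gene, where 9.3% of all genes were higher and 11.1% lower by that rule. The cytokine TNFSF13B (BAFF), which signals to the noncanonical branch, had 14.3, 4.46, 4.08 and 4.47 TPM in NB4, while Kasumi-1 had 112, 58.4, 65.0 and 82.2 TPM (mean log2 change -1.12, SE 0.22, limma adjusted p = 0.0869). The lymphotoxin beta receptor LTBR had 87.0, 93.6, 109 and 103 TPM in NB4, against 27.4, 55.7, 38.6 and 57.0 TPM in Kasumi-1. TNF, LTA and LTB, named after their values were seen, were listed at 0 in all 8 libraries. They lie in a stretch of chromosome 6 (28 to 34 Mb) in which 57.4% of 418 genes were listed at 0 in every library, against 45.7% of 52973 genes on other chromosomes, and these zeros are not read as absent transcripts.

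The 18 kinase and adaptor genes had median changes of 0.18, 0.16 and -0.012 for NB4, against 0.061, 0.017 and 0.044 for Kasumi-1. In the shared test an unadjusted p under 0.05 went to 0 higher genes (9.3% of all genes) and 1 lower gene (11.1%). That gene was TAB1, an adaptor of the kinase TAK1, with 24.2, 20.2, 18.3 and 16.8 TPM in NB4, while Kasumi-1 had 38.6, 29.9, 30.1 and 30.8 TPM. Of 15 further inhibitors and atypical IkB genes 14 were tested, and an unadjusted p under 0.05 went to 5 higher genes (9.3% of all genes) and 1 lower gene (11.1%). BCL3, an atypical IkB that binds p50 and p52, had 1.72, 11.7, 11.3 and 8.98 TPM in NB4, against 6.00, 21.5, 8.18 and 9.03 TPM in Kasumi-1. NFKBID, another nuclear IkB, had 4.22, 11.4, 16.1 and 21.9 TPM in NB4, while Kasumi-1 had 6.49, 29.0, 17.3 and 11.8 TPM. RNF11, a partner of A20, had 14.5, 25.8, 29.0 and 29.7 TPM in NB4, against 41.5, 65.3, 75.5 and 57.6 TPM in Kasumi-1. PDLIM2, a ligase for RELA, had 26.0, 17.1, 15.6 and 20.2 TPM in NB4, while Kasumi-1 had 4.44, 2.61, 2.44 and 2.99 TPM. Their limma adjusted p in the shared test lay between 0.0869 and 0.148.

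Of 21 known target genes 18 were tested. The shared test gave an unadjusted p under 0.05 to 10 that were higher (9.3% of all genes) and 1 that was lower (11.1%). CCL3 and CCL4, among those higher, were tested only because of higher treated libraries. Their place in this count follows in part from the filter. The median of the 18 was 1.13, 1.66 and 1.32 for NB4, against 0.55, 0.42 and 0.27 for Kasumi-1, the highest of the 4 lists at every time in both lines. ICAM1, an adhesion molecule, had 6.58, 340, 494 and 379 TPM in NB4, while Kasumi-1 had 59.0, 71.8, 51.5 and 44.7 TPM. Its response difference was 5.82 (SE 0.42, limma adjusted p = 0.00669). The chemokine CXCL2 had 1.05, 2.69, 3.82 and 2.16 TPM in NB4, against 51.5, 8.25, 6.98 and 6.50 TPM in Kasumi-1, a response difference of 3.58 (SE 0.41, adjusted p = 0.0341). Its changes were -2.51, -2.72 and -2.81 in Kasumi-1, against 0.84, 1.23 and 0.62 in NB4. Unlike for ICAM1, NB4 remained the lower line at every treated time. Of the 6 fits without a treated library, ICAM1 passed in 5 and not in the one without Kasumi-1 at 12 h (limma adjusted p = 0.0589), and CXCL2 passed in 0 (0.0553 to 0.130). With the added time terms neither passed (0.0695 for ICAM1 and 0.147 for CXCL2). Both shared with TNFAIP3 a low untreated level in NB4 and a higher one in Kasumi-1. The 18 tested targets had a median untreated difference of -1.02, NB4 minus Kasumi-1, so this was not particular to them. The response difference also contains the untreated level.

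Some targets, in contrast, were higher in both lines. The chemokine CCL3 had 0.312, 56.1, 104 and 167 TPM in NB4, while Kasumi-1 had 0.119, 52.6, 32.2 and 6.14 TPM. CCL4 had 0, 27.95, 19.3 and 9.47 TPM in NB4, against 1.10, 161, 77.7 and 8.88 TPM in Kasumi-1. BCL2A1, an anti-apoptotic BCL2 relative, had 4.78, 15.98, 42.2 and 43.8 TPM in NB4, while Kasumi-1 had 0.515, 10.3, 16.2 and 5.35 TPM. All 3 were above untreated in 6 of 6 treated libraries, with limma adjusted p between 0.0607 and 0.0748 in the shared test. TNFAIP8, a regulator of cell death, had 346, 91.0, 109 and 129 TPM in NB4, against 62.9, 25.9, 59.6 and 74.9 TPM in Kasumi-1 (limma adjusted p = 0.162).

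**Figure D4:**
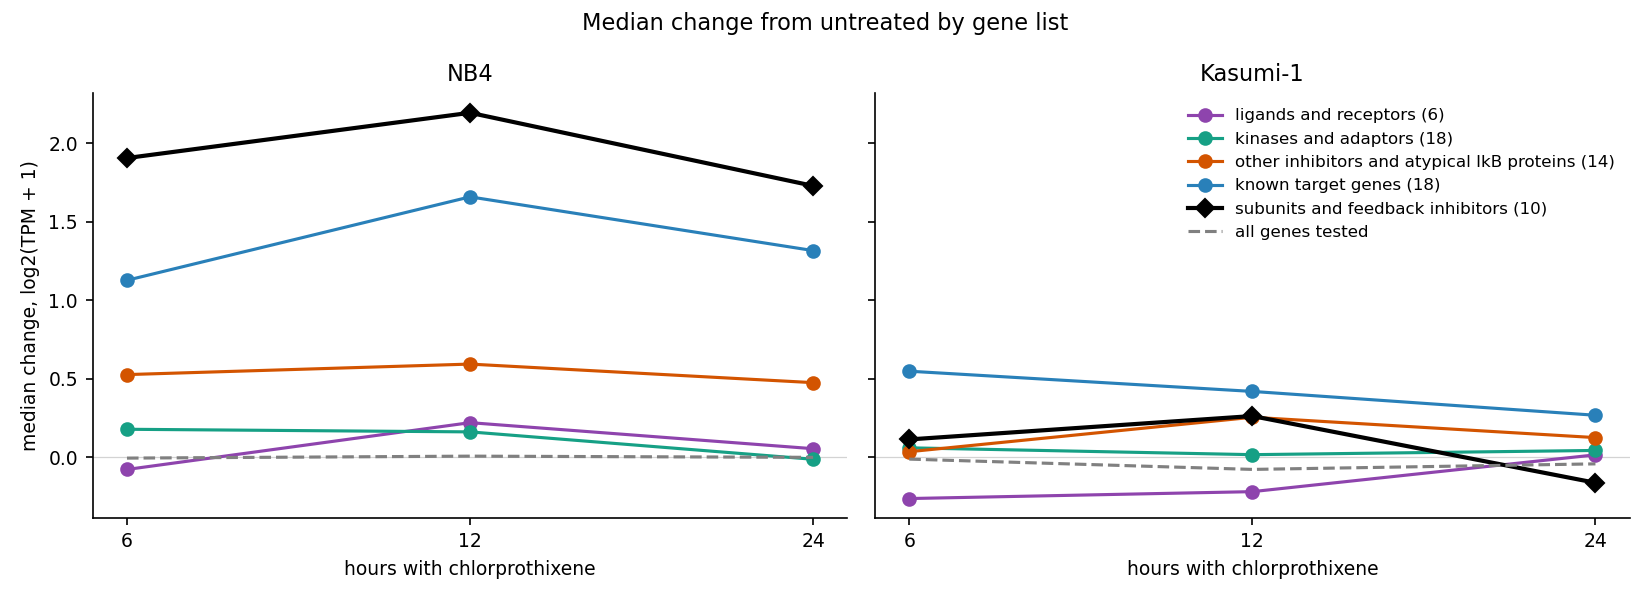
Median change of log2(TPM + 1) from untreated at 6, 12 and 24 h in NB4 (left) and Kasumi-1 (right) for the 10 genes (black), 4 lists of other pathway genes and all genes tested (dashed); the number of genes tested is in the key. The 10 genes lie at 1.91, 2.19 and 1.73 in NB4 and at 0.11, 0.26 and -0.16 in Kasumi-1.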

How the data were processed

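RNA-seq of 8 libraries was used, 1 for each line and time. HISAT2, StringTie and the build hg19 are named, without roles, per the submitters' processing notes. Their versions, the annotation and any strand setting were not given in the sources used here. The deposited TPM values sum to the same total in each library. The deposited FPKM values are scaled for transcript length and depth, and the deposited coverage is a signal, the mean read depth of a gene, per the file headers. Read totals are not given, so depth is known only through coverage.

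Rows were summed by gene name. Genes averaging 1 TPM or more were tested on log2(TPM + 1), which understates changes of low genes, with limma 3.58.1 in R 4.3.3 (eBayes with an intensity trend, two-sided, Benjamini-Hochberg adjusted p under 0.05). The shared response and the line difference came from an additive model of time and line (3 residual degrees of freedom). The response difference came from line, treatment and their product (4 residual degrees of freedom). Only the fit of the shared response was tried on simulated data, with equal changes in both lines and a fixed spread. The fits of the line difference and the response difference were not tried in this way. Within a line, folds of 2 or more were counted with no test. The named genes were the 10, pathway genes past a threshold or up to 3 each way per list at an unadjusted p under 0.05 in the shared test, and the 5 most like NFKBIA. The 10 genes and all lists were chosen with earlier results of these data known. Promoter windows came from RefSeq (GRCh38.p14). The remaining steps used pandas 2.3.3, numpy 2.4.6 and matplotlib 3.10.9 under Python 3.11.15. The alternatives were a pseudocount of 0.1, no filter, a mean of at least 5 TPM, FPKM, TPM without mitochondrial and the 10 most abundant genes, no line term, times as repeats, each library left out, and, added after the data were seen, coverage scaled to an equal sum per library and time terms in the response difference.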

Additional observations from a re-analysis of the deposited data

Results flagged for a closer look

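In the main fit the response of TNFAIP3 and NFKB2 differed between NB4 and Kasumi-1 by test. In TPM, NFKBIE and REL stood on opposite sides of untreated in the lines without passing it. For TNFAIP3 (5.14, NB4 minus Kasumi-1 on the log2 scale) and NFKB2 (2.47) the difference passed the limma interaction test with adjusted p = 0.0187 for both, but not with added time terms (limma adjusted p = 0.0705 and 0.107). Of the 6 fits that left out a treated library, TNFAIP3 passed in 3 and NFKB2 in 1. The test takes the times of a line as repeats, so it holds no spread between cultures. For NFKBIE (2.77) and REL (0.83) all 3 treated NB4 libraries were above untreated NB4 in TPM. All 3 treated Kasumi-1 libraries were below untreated Kasumi-1. The interaction did not pass (limma adjusted p = 0.0881 and 0.620). REL at 24 h had 3.64 TPM in treated NB4 against 3.48 TPM untreated, a change of 0.050. Its unscaled coverage there was 9.56 against 11.4 untreated. The summed coverage of that library was also lower, so the side of untreated on which REL stood at 24 h is not settled. TNFAIP3 was also above untreated in NB4 and below it in Kasumi-1 at every time. In each case the 3 changes of a line rest on 1 untreated library. For TNFAIP3, NFKB2, NFKBIE and REL, NB4 minus Kasumi-1 was -3.19, -0.90, -0.58 and -1.31 untreated. The mean treated differences were 1.95, 1.57, 2.19 and -0.48, so REL was lower in NB4 in both. How far an untreated level varies between cultures was not tested.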

How the results depend on the processing

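Over all genes, the shared response called 4 genes higher and 0 lower. The higher count was 0 with coverage, without a line term, without a filter or at a pseudocount of 0.1, 21 (6 lower) at a mean of at least 5 TPM, 15 (2 lower) without mitochondrial and the 10 most abundant genes, and 78 (55 lower) with times as repeats. Leaving out each library gave 0 to 40 higher and 0 to 4 lower. The response difference called 13 genes higher and 6 lower. This became 272 and 256 with no filter, 8 and 2 with coverage, and 1 and 1 with terms for 12 h and 24 h, and leaving out each treated library gave 0 to 17 higher and 0 to 15 lower; without an untreated library it could not be fitted. Of the 10 genes, the shared values of NFKB1 (-0.089 to 1.16), REL (-0.22 to 0.61), NFKBIE (-0.86 to 1.91), TNFAIP3 (-0.83 to 4.31) and BIRC3 (-0.052 to 1.999) had both signs when libraries were left out, the low end each time without untreated NB4. The low ends of NFKB2 (0.27), NFKBIA (0.67) and RELB (0.27) came from the same library. The 10 response differences kept their sign in every alternative that could be fitted. For Kasumi-1, the count of the 10 genes at least 2-fold higher, 1 at 6 h and 12 h, became 0 at both with a mean of at least 5 TPM, which leaves TRAF1 and BIRC3 untested, and 0 at 12 h with FPKM. At 24 h, and at all 3 times, it was 0 and became 1 with a pseudocount of 0.1, without mitochondrial and the 10 most abundant genes, or with coverage, and at the remaining times without 24 h it was 1 (0 to 1 over the 3 times left out). No paired analysis was possible because each condition has 1 library and so no replicate numbers to pair, though time is a term in the shared fit and in the added response fit. Of the untreated levels, TRAF1 and BIRC3 rest on a coverage near 1, which limits what their changes show.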
